A study of Mus musculus with 8 samples.

Results

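The intercalated disc junction genes are 10 genes picked by symbol from the 15358 genes of the deposited count table. They comprise 5 desmosomal genes (Dsp, Pkp2, Jup, Dsg2 and Dsc2), 3 genes of the adherens junction (Cdh2, Ctnna1 and Ctnna3) and 2 connexin genes of the gap junction (Gja1 and Gjc1). All 10 had a row in the table and all 10 passed the filter on low counts. RNA came from the whole ventricle of mouse hearts at E14.5 (day 14.5 of gestation). The conditional knockout (cKO) embryos had the genotype XMLC2V; Lem2 f/f, that is, a Cre transgene named XMLC2V together with floxed Lem2 alleles. Their littermate controls were Lem2 f/f without the Cre, so that every library came from an embryo with floxed Lem2. The labels do not say which promoter drives the Cre, and whole ventricle also holds cells in which it need not act.

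The intercalated disc is the end-to-end contact between heart muscle cells. Desmosomes tie the intermediate filaments of neighbouring cells together, adherens junctions tie their actin filaments, and gap junctions let ions pass between them. In the embryonic heart these junctions are still spread along the cell sides and gather at the cell ends only after birth. Mutations of desmosomal genes cause arrhythmogenic cardiomyopathy in people, and in mice loss of Cdh2, Jup or Pkp2 disrupts the heart of the embryo. Lem2 (gene symbol Lemd2) is a protein of the inner nuclear membrane. The comparison asks whether the transcripts of the junctions differed in ventricle in which Lem2 was targeted.

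The data comprised 4 cKO and 3 control libraries of 28921922 to 39351262 counts. Lemd2, which checks the labels, lay at 18.5, 17.1, 16.3 and 13.7 CPM in cKO replicates 1 to 4, against 36.8, 34.4 and 36.4 CPM in control replicates 1 to 3, where CPM is the count scaled to a common library size with TMM factors. Its log2 fold change was -1.13 (SE 0.0857), with an adjusted p of 0.00135 in the edgeR quasi-likelihood F-test. Over the 35 arrangements of the libraries, the two-sided exact permutation p was 0.0286, which is the lowest possible. Of the cKO libraries 2 (replicates 3 and 4) expressed Xist and almost no Y-linked Ddx3y, whereas the other 2 and all 3 controls expressed Ddx3y, so the groups differed in sex as well as genotype. The titles carry a code, F169 or F191, which the labels do not explain: 3 cKO and 2 control libraries were F169, and 1 of each group was F191.

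Of the marker lists, cardiomyocyte genes summed to 41586 to 48685 CPM in cKO and 46023 to 48903 CPM in control. Sums for endothelium (1414 to 1457 CPM in cKO, 1338 to 1427 in control), epicardium (240.1 to 295 in cKO, 247 to 294 in control), red cells (2350.0 to 2614 in cKO, 1878 to 3641 in control), epithelium (23.5 to 28.6 in cKO, 19.7 to 25.1 in control) and neural crest and neurons (10.2 to 11.99 in cKO, 9.74 to 14.3 in control) overlapped between the groups, and edgeR called 0 of their genes. Macrophage markers summed to 103 to 115 CPM in cKO and 94.1 to 98.3 CPM in control, and 1 of 8, C1qb, was called higher. Mrc1 alone went the other way (log2 fold change -0.21, SE 0.0514), at 23.2 to 24.8 CPM in cKO and 26.2 to 28.9 CPM in control.

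None of the 10 junction genes passed the test between cKO and control, at an adjusted p under 0.05 with the same edgeR F-test, adjusted after Benjamini and Hochberg over all 14887 genes tested. Of all genes tested, 1.09% passed in either direction, 0.766% being higher and 0.322% lower in cKO. At an unadjusted p under 0.05 the count was also 0 of 10, against 17.9% of all genes, and DESeq2 called 0 of 10 against 4.23%. The unadjusted count was 1 or 2 in 10 of 18 alternatives, made up of Cdh2 (as with DESeq2 and limma-voom), Ctnna3 or both (as with upper-quartile factors and without cKO replicate 2) or of Gja1 (as without cKO replicate 1 or control replicate 3). The log2 fold changes, cKO over control, ran from -0.12 for Ctnna3 to 0.14 for Gja1, with 3 above and 7 below 0. Their median was -0.0372, beside -0.00599 over all genes tested. With 1 library left out, the median of the 10 ran from -0.0529 without control replicate 1 to -0.00428 without control replicate 3. It was -0.0154 without cKO replicate 1.

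With all 7 libraries, the 95% interval of each of the 10 fold changes lay within 1.25-fold in either direction, which held for 63.6% of all genes tested and for 94.2% of the 5178 genes at least as abundant as Ctnna3, the least abundant member. In 6 of the 16 alternatives that give intervals, that of Gja1 alone passed this limit, with an upper end of 0.379 on the log2 scale without control replicate 3, 0.369 without control replicate 1, 0.356 within F169, 0.343 and 0.331 without cKO replicate 1 or 3, and 0.332 on cardiomyocyte marker scaling. In absolute size the log2 fold changes of the 10 genes had a median of 0.0541, against 0.0802 over all genes and 0.056 over those abundant genes. Controls are called littermates but the labels do not say which embryos share a litter, so a p-value here reflects only how these libraries vary. In whole ventricle, fewer cells of a type and less RNA per cell cannot be told apart.

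**Figure D1:**
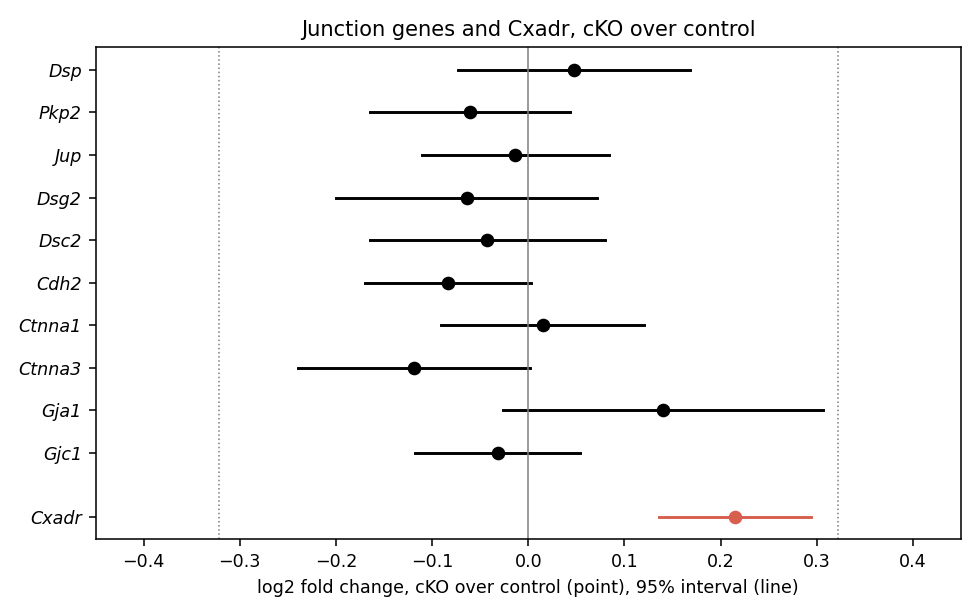
Log2 fold change, cKO over control (points), with its 95% interval (lines) for the 10 junction genes and for Cxadr, a further gene of the disc; dotted lines mark 1.25-fold in either direction. Each interval of the 10 junction genes spans 0 and ends inside the dotted lines, while that of Cxadr (0.136 to 0.294) lies above 0.

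Among the desmosomal genes, Dsp encodes desmoplakin, which links the desmosome to desmin filaments (mm10 chromosome 13, 38151294 to 38198578, plus strand). It lay at 1153, 1290, 1234 and 1266 CPM in cKO replicates 1 to 4, against 1183, 1125 and 1279 CPM in control replicates 1 to 3. Control replicate 2 was the lowest library and cKO replicate 2 the highest, and the groups overlapped. Its level was 3.35% higher in cKO on the fitted scale, with a 95% interval from 4.97% lower (-4.97) to 12.4% higher (edgeR adjusted p = 0.695). On the log2 scale its fold change of 0.05 became 0.00538 without control replicate 2 and 0.099 without control replicate 3.

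Pkp2 encodes plakophilin-2, an armadillo protein that joins the desmosomal cadherins to desmoplakin (chromosome 16, 16213345 to 16272713, plus strand). It lay at 195, 223, 210 and 216 CPM in cKO replicates 1 to 4, against 218, 219 and 225 CPM in control replicates 1 to 3. Of the cKO libraries 3 were thus below the lowest control, and cKO replicate 2 lay among the controls. Its log2 fold change came to -0.061 (SE 0.0465, edgeR adjusted p = 0.533).

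Jup encodes plakoglobin, which is found in desmosomes and adherens junctions alike (chromosome 11, 100368856 to 100397791, minus strand). Its levels of 189, 196, 189 and 210 CPM in cKO replicates 1 to 4 enclosed those of 196, 197 and 201 CPM in control replicates 1 to 3. Its log2 fold change of -0.013 (SE 0.0436) was the one nearest to 0. The interval ran from -0.111 to 0.0842 on the log2 scale.

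The desmosomal cadherins, whose outer domains bind those of the next cell, are Dsg2 and Dsc2 (chromosome 18, 20558074 to 20604527, plus strand, and 20030633 to 20059555, minus strand). Dsg2 averaged 120 ± 9.13 CPM in cKO and 126 ± 6.73 CPM in control (SD, 4 and 3 libraries), with a log2 fold change of -0.064 (SE 0.0606, edgeR adjusted p = 0.624). Dsc2 averaged 59.6 ± 3.45 CPM in cKO and 61.4 ± 3.39 CPM in control, with a log2 fold change of -0.043 (SE 0.0544, edgeR adjusted p = 0.732). For both genes the libraries of the groups overlapped. Across the desmosomal genes 1 fold change was thus above 0 and 4 below, and none passed the test.

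**Figure D2:**
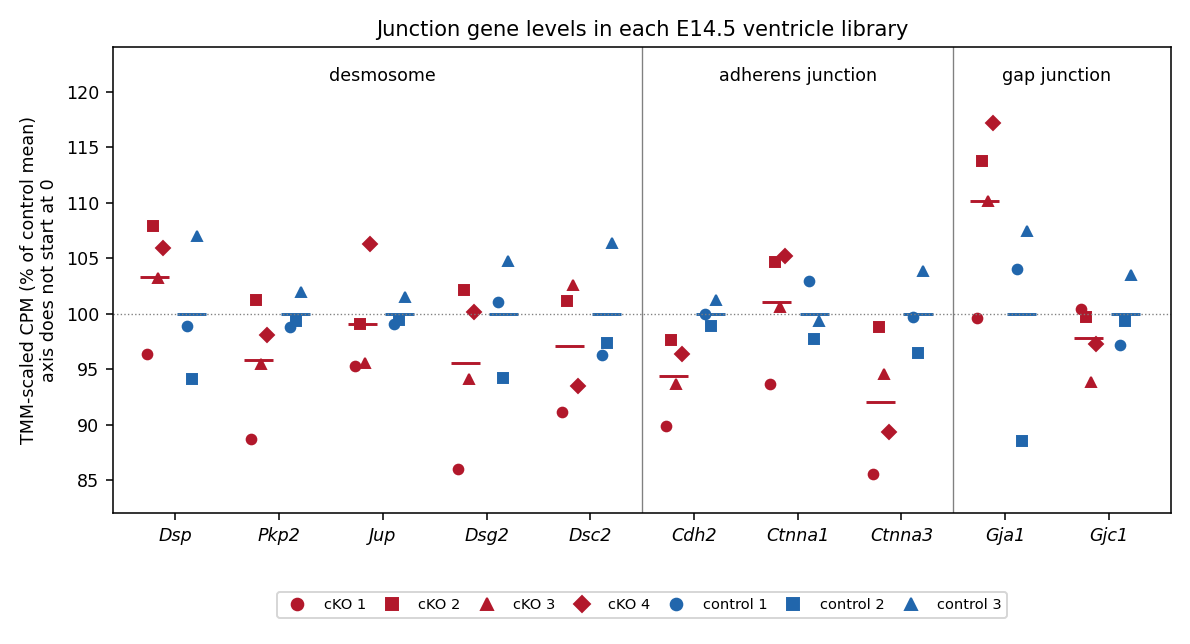
Level of each junction gene in each library as TMM-scaled CPM, in percent of the mean of the 3 controls (horizontal lines are group means; marker shape gives the replicate number; the axis does not start at 0). Cdh2 is the one gene whose 4 cKO libraries all lie below its 3 controls, and cKO replicate 1 is the lowest cKO library for 9 of the 10 genes.

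Of the adherens junction genes, Cdh2 encodes N-cadherin, the main cadherin of heart muscle (chromosome 18, 16588877 to 16809247, minus strand). It lay at 642, 698, 670 and 689 CPM in cKO replicates 1 to 4, against 714, 707 and 723 CPM in control replicates 1 to 3. Every cKO library was below every control, which made Cdh2 the 1 member of 10 whose groups did not overlap. Of all genes tested, 8.28% had all cKO libraries below all controls, and 17% did not overlap in either direction. The fitted level was lower by 5.62% (percent change -5.62, 95% interval -11.1 to 0.196; log2 fold change -0.084, SE 0.0385), with an unadjusted p of 0.0565 and an adjusted p of 0.295 by edgeR. The log2 difference was -0.086 within F169 and -0.071 between the single libraries of F191.

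Ctnna1 encodes alpha-E-catenin, which links the cadherin complex to actin in most tissues (chromosome 18, 35118912 to 35254776, plus strand). It lay at 531, 593, 570 and 596 CPM in cKO replicates 1 to 4, against 584, 554 and 563 CPM in control replicates 1 to 3. The highest and the lowest library were both cKO, and its log2 fold change came to 0.015 (SE 0.047, edgeR adjusted p = 0.903).

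Ctnna3 encodes alpha-T-catenin, a relative of alpha-E-catenin found mostly in heart and testis (chromosome 10, 63430098 to 65003668, plus strand). Its levels were 39.4, 45.5, 43.5 and 41.1 CPM in cKO replicates 1 to 4, against 45.9, 44.4 and 47.8 CPM in control replicates 1 to 3. Of its cKO libraries 3 were below all controls, and cKO replicate 2 lay between controls 1 and 2. The fitted level differed by -7.91% (95% interval -15.3 to 0.0944; log2 fold change -0.12, SE 0.0537, unadjusted p = 0.0522, edgeR adjusted p = 0.285). The log2 difference was -0.080 within F169 and -0.217 between the libraries of F191. Lrrtm3, a neuronal gene on the opposite strand, lies inside Ctnna3 but held 16 to 28 counts per library, against 1171 to 1767 for Ctnna3. In GENCODE M21, genes on the opposite strand also overlap Dsp (Gm10129), Dsg2 (Gm16090), Cdh2 (Gm15485) and Ctnna1 (Lrrtm2), and further ones Ctnna3 (Gm10118 and Gm23854).

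The start of Ctnna3, whose fold change was the lowest of the 10, is shown as the 250 bases before and the 50 after it (RefSeq, GRCm38.p6, chr10:63429848-63430147, plus strand, written 5′ to 3′). The capitals mark overlapping matches to GCATGCG, 1 on each strand; these letters are from the core of the sequence bound by the factor NRF1.
Ctnna3: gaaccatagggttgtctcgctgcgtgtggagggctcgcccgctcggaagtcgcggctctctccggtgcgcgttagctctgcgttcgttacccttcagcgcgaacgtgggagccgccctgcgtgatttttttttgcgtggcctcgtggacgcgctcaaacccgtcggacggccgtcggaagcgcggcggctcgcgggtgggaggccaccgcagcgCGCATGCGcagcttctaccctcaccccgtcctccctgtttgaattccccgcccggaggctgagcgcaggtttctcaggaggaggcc
These letters, searched on both strands, were in 3.58% of the 32851 promoter windows of this length. The window also held 2 copies of GGGCGG, the GC box, which 35.7% of all windows held at least once.

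Of the gap junction genes, Gja1 encodes connexin 43, the main connexin of ventricular muscle, which fibroblasts and smooth muscle cells make as well (chromosome 10, 56377300 to 56390420, plus strand). It lay at 628, 717, 694 and 738 CPM in cKO replicates 1 to 4, against 656, 558 and 678 CPM in control replicates 1 to 3. Here 3 cKO libraries were above all controls, cKO replicate 1 was below 2 of them, and control replicate 2 was the lowest library. The fitted level was 10.2% higher in cKO, with a 95% interval from -1.82% to 23.7% (log2 fold change 0.14, SE 0.0743, unadjusted p = 0.0903, edgeR adjusted p = 0.363). This was the largest fold change and the widest interval among the 10 genes. Without control replicate 2 its log2 fold change came to 0.0592, and without the 2 cKO libraries that express Xist it was 0.094. It was 0.17 within F169 and 0.12 between the libraries of F191.

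Genes listed as markers of mural cells summed to 1421 to 2064 CPM in the cKO libraries and 1222 to 1420 CPM in the controls, and 0 of 7 passed the test. Acta2, the most abundant of them, lay at 914 to 1384 CPM in cKO and 767 to 884 CPM in control. The log2 fold changes of Acta2 (0.44), Tagln (0.64), Cnn1 (0.14), Pdgfrb (0.11) and Cspg4 (0.081) were above 0. Those of Myh11 (-0.53) and Rgs5 (-0.38) were below 0. Which cells these transcripts came from was not resolved in whole ventricle. The sums of fibroblast markers overlapped, at 3905 to 5176 CPM in cKO and 4230 to 5076 CPM in control, with 0 of 8 passing. Their part in the Gja1 values was not tested.

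Gjc1 encodes connexin 45, the earliest connexin of the heart tube and later one of the conduction system (chromosome 11, 102799478 to 102819687, minus strand). It was the steadiest of the 10 genes, at 77.4, 76.9, 72.4 and 75.1 CPM in cKO replicates 1 to 4, against 74.9, 76.6 and 79.8 CPM in control replicates 1 to 3. The SD of its log2 CPM over the 7 libraries was 0.0443, against 0.136 for Gja1. Its log2 fold change came to -0.032 (SE 0.0382, edgeR adjusted p = 0.711), and its interval, from -0.117 to 0.0537 on the log2 scale, was the narrowest of the 10.

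The start of Gja1, at the other end of the range of fold changes from Ctnna3, is shown over the same window (RefSeq, GRCm38.p6, chr10:56377050-56377349, plus strand, 5′ to 3′). The capitals mark TGAGTCA, the letters bound by AP-1 dimers of FOS and JUN proteins.
Gja1: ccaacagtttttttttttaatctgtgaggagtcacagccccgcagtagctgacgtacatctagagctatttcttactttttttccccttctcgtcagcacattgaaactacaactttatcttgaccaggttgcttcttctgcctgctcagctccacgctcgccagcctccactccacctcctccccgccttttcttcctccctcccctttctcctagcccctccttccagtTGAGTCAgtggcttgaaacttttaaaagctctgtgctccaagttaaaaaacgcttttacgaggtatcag
The match begins 19 bases before the start (position -19), and 5.2% of all windows held these letters on either strand. Neither window held TATAAA (13.6% of all windows) or CCAAT (37.4%). Of the other members, the window of Dsp held 4 copies of GGGCGG, and that of Jup held 2 copies of CCAAT and 2 of GGGCGG. The motifs were chosen with these sequences in view, and a match is a description of the letters alone.

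Levels can be set beside each other between genes only per length, here as CPM per kb of exon. Gja1 was the highest on this scale, at 206 ± 14.2 CPM per kb in cKO and 187 ± 18.9 in control. Ctnna1 (156 ± 8.20 in cKO, 154 ± 4.15 in control), Cdh2 (136 ± 4.95 in cKO, 144 ± 1.69 in control) and Dsp (129 ± 6.26 in cKO, 125 ± 8.13 in control) followed. Pkp2 (73.1 ± 4.08 in cKO, 76.2 ± 1.28 in control) and Jup (60.9 ± 3.15 in cKO, 61.5 ± 0.828 in control) formed a middle pair. Gjc1 was at 27.9 ± 0.840 in cKO and 28.5 ± 0.914 in control. Dsg2 (14.5 ± 1.10 in cKO, 15.2 ± 0.814 in control), Dsc2 (12.9 ± 0.746 in cKO, 13.3 ± 0.733 in control) and Ctnna3 (11.3 ± 0.712 in cKO, 12.2 ± 0.453 in control) were the lowest. The order by group mean was the same in cKO and in control. The desmosomal cadherins were thus the least abundant desmosomal transcripts per length in both groups. Between neighbours in this order, the libraries of Cdh2 and Dsp overlapped in cKO but not in control, and so did those of Dsg2 and Dsc2, whereas those of Gja1 and Ctnna1 did not overlap in either group.

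The make-up of each family was described as shares of the family's CPM per kb, without a test. Gja1 held 64.5 to 67.8% of connexin transcripts in the cKO libraries and 62.4 to 64.3% in the controls. Gjc1 held 8.58 to 9.91% in cKO and 9.15 to 10.7% in control. Gja5, which encodes connexin 40 of trabeculae, conduction system and arteries, was the second connexin, with 16.4 to 17.9% in cKO and 19.5 to 21.97% in control. The shares of Gja1 and of Gja5 did not overlap between the groups, that of Gja1 being higher and that of Gja5 lower in cKO. For Gja1 the gap was narrow, from 64.3% in the highest control to 64.5% in the lowest cKO library. Shares within a family are tied together. A lower share of Gja5 raises that of Gja1, so these are not separate results. In CPM the groups overlapped for Gja1. The CPM of Gja5 itself overlapped, at 156 to 173 in cKO and 161 to 219 in control, and did not pass the test (log2 fold change -0.19, SE 0.0866, edgeR adjusted p = 0.294). Genes listed as markers of atrial myocardium, which also makes Gja5, summed to 3240 to 4108 CPM in cKO and 2735 to 3099 CPM in control, with 0 of 7 passing. They did not move together. The log2 fold changes of Nppa (0.63), Myl4 (0.13) and Nr2f2 (0.0041) were above 0. Those of Sln (-0.44), Nr2f1 (-0.17), Tbx5 (-0.10) and Myl7 (-0.053) were below 0. Nppa alone lay at 1526 to 2190 CPM in cKO and 1129 to 1404 CPM in control, whereas Sln lay at 2.33 to 5.44 and 3.34 to 7.16 CPM. The part of the heart that these transcripts came from was not resolved in whole ventricle. The part of these markers in the shares was not tested.

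Cadherin shares were taken over 12 listed genes, Cdh2 among them, without the desmosomal cadherins Dsg2 and Dsc2. Of these transcripts Cdh2 held 42.05 to 43.5% in cKO and 43.8 to 44.97% in control. Cdh5, the cadherin of endothelium, came next with 25.3 to 26.3% in cKO and 24.7 to 25.5% in control. Ctnna3 held 6.29 to 6.95% of alpha-catenin transcripts in cKO and 7.11 to 7.63% in control, and Ctnna1 nearly all of the rest. The shares of Cdh2 and Ctnna3 lay below all controls in every cKO library. For levels in CPM, 17% of all genes tested did not overlap in either direction, and no such background was computed for family shares. Of plakophilin transcripts, Pkp2 held 58.7 to 60.4% in cKO and 59.9 to 62.0% in control, and Pkp4, which is found in many tissues, held most of the remainder.

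**Figure D3:**
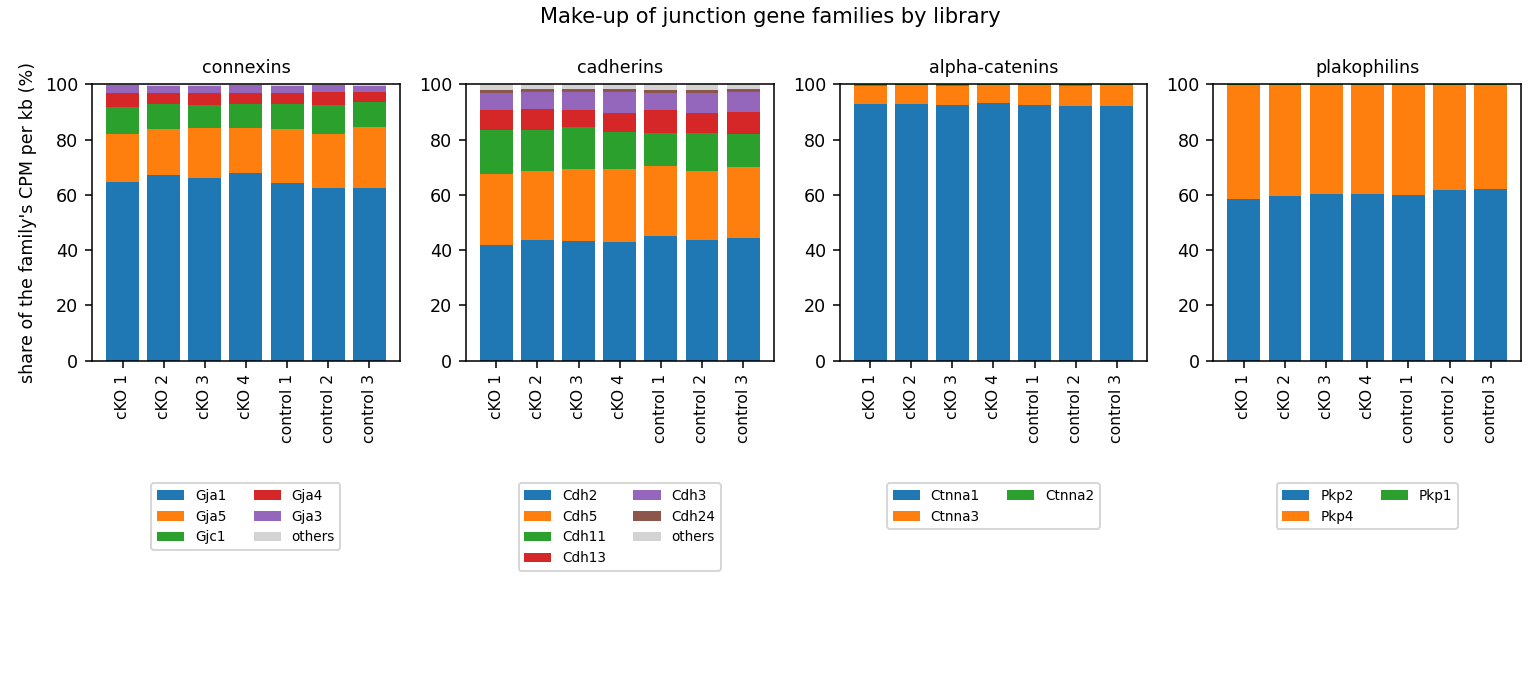
Share of each gene in the CPM per kb of its family (percent, stacked bars) in each library, cKO libraries left of controls, for connexins, cadherins, alpha-catenins and plakophilins. Gja1, Cdh2, Ctnna1 and Pkp2 form the largest part of their family in each of the 7 libraries, and group differences amount to a few percentage points.

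The members varied from library to library within a genotype. In cKO replicate 1 the median of the 10 genes was 92.4% of the control mean, against 101%, 95.5% and 99.1% in cKO replicates 2 to 4 and 99.4%, 97.5% and 104% in control replicates 1 to 3. This library was the lowest of all 7 for 7 of the 10 genes, whereas 15.4% of all genes tested were lowest there. Control replicate 3 was the highest of all for 6 of the 10, against 17.9% of all genes. The exception to the low values in cKO replicate 1 was Gjc1, which was highest there among the cKO libraries.

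Cardiomyocyte markers, a list of 12 genes such as Tnnt2 and Myh7, also had their lowest sum in cKO replicate 1, and 9 of the 12 were lowest there, the exceptions being Myh6, Ttn and Actc1. The sum was 41586 CPM in that library, 86.8% of the control mean, against 45531 to 48685 CPM in the other cKO libraries and 46023 to 48903 CPM in the controls. Fibroblast markers were at their highest in cKO replicate 1, at 114% of the control mean. Of the cardiomyocyte markers 0 of 12 passed the test between the groups. Libraries were also scaled on these 12 genes, so that levels are relative to heart muscle transcripts. The median log2 fold change of the members was then 0.0248, beside 0.0553 over all genes tested. With TMM these medians were -0.0372 and -0.00599, so on both scales the members lay below all genes. Gja1 had 0.201 on marker scaling (95% interval 0.0705 to 0.332, edgeR adjusted p = 0.201). None of the 10 was called on that scale either.

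**Figure D4:**
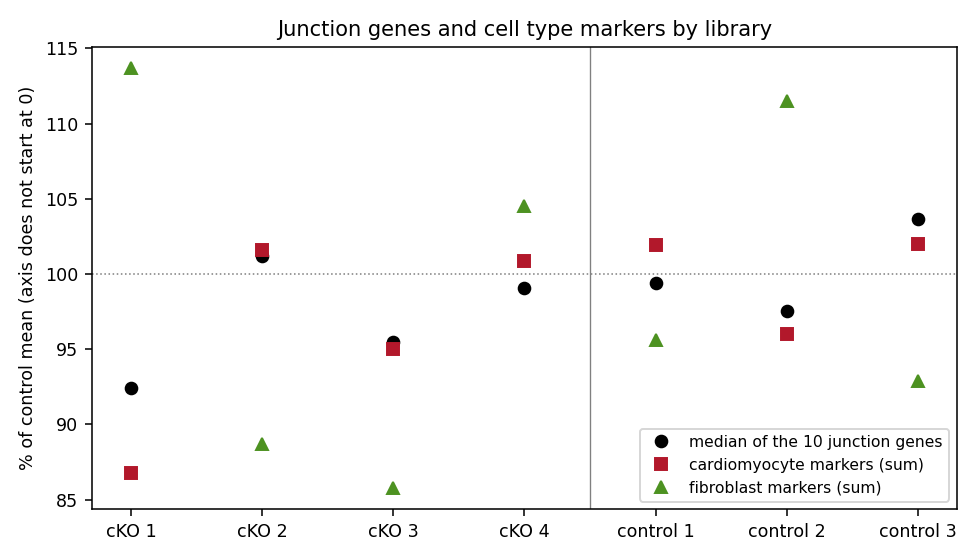
Median of the 10 junction genes (circles), summed cardiomyocyte markers (squares) and summed fibroblast markers (triangles) in each library, in percent of the mean of the 3 controls; the axis does not start at 0. In cKO replicate 1 the junction genes stand at 92.4% and the cardiomyocyte markers at 86.8%, while the fibroblast markers stand at 114%.

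The other genes of the disc and of the same families were taken from 6 lists of partners, scaffolds, muscle anchor proteins, connexins, cadherins and epithelial desmosome genes. Of their 88 tested genes 1 was higher and 0 lower, a share near that of all genes, and the median log2 fold change was -0.00683. The gene that rose was Cxadr, which encodes the coxsackievirus and adenovirus receptor, a cell adhesion protein that in mice is required for atrioventricular conduction (chromosome 16, 78301671 to 78359786, plus strand). Cxadr lay at 205, 213, 215 and 205 CPM in cKO replicates 1 to 4, against 182, 183 and 176 CPM in control replicates 1 to 3. All 4 cKO libraries were above all controls, as for 8.67% of all genes. The rise was 16.1% (95% interval 9.87 to 22.6; log2 fold change 0.21, SE 0.0353, edgeR adjusted p = 0.0284).

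The size of the Cxadr difference was much the same in each alternative, at 0.197 to 0.277 on the log2 scale, but the call was lost in 10 of 18. Its adjusted p by edgeR was 0.152 without the 2 Xist-expressing cKO libraries and 0.143 within F169. It was 0.0987 and 0.0842 without cKO replicate 2 or 3, and 0.0798, 0.0865 and 0.114 without control replicate 1, 2 or 3. The log2 difference was 0.21 within F169 and 0.22 between the libraries of F191. Btg3, on the opposite strand, ends just past the end of Cxadr in the table, so that the genes converge, and a GENCODE transcript of Btg3 reaches into Cxadr. Btg3 was called higher with a log2 fold change of 0.40 (SE 0.0352, edgeR adjusted p = 0.00223). Strand use in the counting is not stated in the sources used here, and the part of Btg3 in the Cxadr counts was not tested.

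Of the adherens and area composita partners 0 of 21 were called. Ctnnb1, which encodes beta-catenin, was at 1052 ± 14.7 CPM in cKO and 1041 ± 26.8 CPM in control (log2 fold change 0.015, SE 0.0344). Actn1, which encodes a non-muscle alpha-actinin, had 0.20 (SE 0.0553, edgeR adjusted p = 0.110), Arvcf -0.13 (SE 0.0409), Nectin3 -0.11 (SE 0.0397) and Tln1 0.12 (SE 0.0546). These 4 genes had the smallest p of their list.

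Of the 19 scaffold and tight junction genes Cxadr alone was called, and Tjp1, which encodes ZO-1, the scaffold that binds connexin 43, had -0.035 (SE 0.0406). Of 22 muscle anchor genes 0 were called. Ldb3, which encodes the Z-disc protein cypher, had the smallest p, at 654 to 730 CPM in cKO and 768 to 863 CPM in control (log2 fold change -0.26, SE 0.0556, edgeR adjusted p = 0.0655). Its groups did not overlap, and DESeq2 called it, as it did Actn1, Panx2 and Cxadr, 4 of the 88 genes in all, where DESeq2 called 4.23% of all genes. Synm, next after Ldb3 by p among the muscle anchor genes, had 0.26 (SE 0.0843, edgeR adjusted p = 0.151). Des, which encodes the desmin that desmoplakin anchors, had 0.12 (SE 0.0897), and Vcl, which encodes the vinculin that alpha-catenin recruits, 0.031 (SE 0.0438).

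Of 8 other connexins and pannexins tested 0 were called, with Gja4 of arterial endothelium at 0.23 (SE 0.0627, edgeR adjusted p = 0.107) and Panx2 at -0.42 (SE 0.122, adjusted p = 0.118). Of 11 other cadherins 0 were called, led by Cdh20 (-0.25, SE 0.0695), Cdh13 (-0.22, SE 0.0667) and Cdh11 of mesenchyme (0.19, SE 0.0618). Of 7 epithelial desmosome and plakin genes tested 0 were called, and Krt8 had the smallest p (0.33, SE 0.139, edgeR adjusted p = 0.259). The other 7 genes of that list, among them the epidermal cadherin genes Dsg3 and Dsc1, were not analysed here.

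The genes nearest in pattern were sought for the 3 members with the largest spread over the libraries, as the mean absolute difference of centred log2 CPM over 7 libraries among the 10428 genes whose mean log2 CPM reached 3. Nearest to Gja1 were Ndufaf6 (0.0256), Tuba1c (0.0284) and Bex4 (0.0306). Nearest to Dsg2 were Camta1 (0.0125), Tln2 (0.0135) and Palld (0.018). Nearest to Ctnna3 were Ank2 (0.0207), Camk2d (0.0214) and Nrm (0.0226). None of these 9 genes was called between the groups, which follows largely from their nearness to members that were not called.

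**Figure D5:**
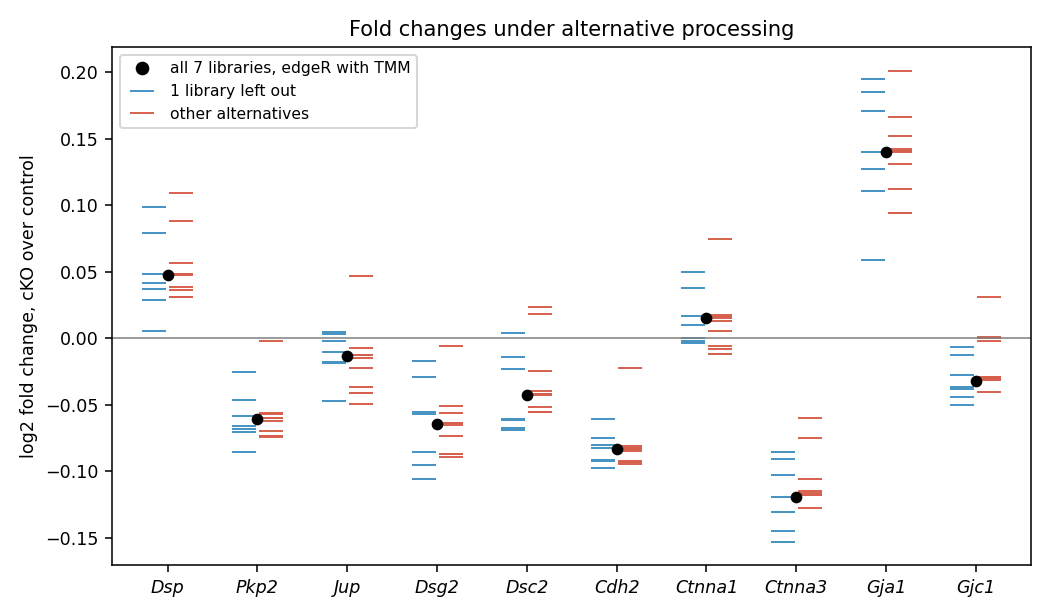
Log2 fold change, cKO over control, of each junction gene with all 7 libraries (black points), with 1 library left out (left ticks) and under the other alternatives (right ticks). Over these settings the values stay between -0.153 and 0.201, and those of Jup, Dsc2, Ctnna1 and Gjc1 fall on both sides of 0.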

How the data were processed

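The authors deposited one table of estimated counts per gene, with each gene's position. The submitters' processing notes list STAR 2.4.2a, HTSeq 0.6.1 and the build mm10 without saying how each was used, and the library kit was directional per the labels' protocols. Of the deposited values 30.3% were not exactly whole (tolerance 0), so estimated counts were rounded. Columns were matched to samples by the code in the title. A last column matched no title, equalled the sum of the other 7 in all 15358 rows (tolerance 1e-06 counts) and was not used (1 column), so control replicate 4 was not analysed here.

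Genes were filtered with filterByExpr (minimum count 10; 471 removed), scaled by TMM and tested with edgeR 4.0.16's quasi-likelihood F-test in R 4.3.3, with Benjamini-Hochberg adjustment over 14887 genes and a threshold of 0.05. SE is the absolute log2 fold change over the square root of F, and 95% intervals use the t quantile. The edgeR step was tested on simulated data. Alternatives were DESeq2 1.42.0, limma-voom (3.58.1), edgeR scaled by DESeq2's size factors, edgeR without the filter on low counts and those in the closing section. Libraries of one group differed by 9.39 to 13.1 times sampling noise (chi-square per degree of freedom), so none stood for another. Exon lengths are merged exons of protein-coding transcripts in GENCODE M21's basic set, within the table's gene bounds. Coordinates are the table's; the end lay 1 base past GENCODE's in 5 of 10 members. RefSeq promoters matched 4 members outside chromosome 18. Named are all members, Lemd2, called genes, up to 4 genes with the smallest p of a list, pattern neighbours, overlapping genes and markers. Ctnnb1, Tjp1, Des, Vcl, Gja5, Pkp4, Dsg3 and Dsc1 were named for their role. Members and lists were chosen with earlier results of these data known.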

Additional observations from a re-analysis of the deposited data

How the results depend on the processing

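In each of 18 alternatives 0 of the 10 members were called, with log2 fold changes from -0.153 to 0.201 and a smallest adjusted p of 0.201. The direction held in 165 of 180 member values. It turned on cardiomyocyte marker scaling for Jup (0.0469), Dsc2 (0.0183) and Gjc1 (0.0313), and the member median moved to 0.0248 there. The median over all genes tested moved up on that scaling too, from -0.00599 with TMM to 0.0553. The direction also turned in the F169 libraries alone for Dsc2 (0.0236) and Ctnna1 (-0.00812). With a Y-linked term it turned for Ctnna1 (-0.012) and Gjc1 (0.000396), and with the Xist-expressing libraries omitted for Ctnna1 (-0.0118) and Gjc1 (0.000638). With 1 library left out, Jup ran from -0.0475 to 0.00463, Dsc2 from -0.0692 to 0.00402 and Ctnna1 from -0.00344 to 0.0495. The cause was not tested.

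All genes called numbered 629 with DESeq2, 78 on cardiomyocyte marker scaling (72 higher and 6 lower, against 114 and 48 with TMM), 20 in the F169 libraries alone, 20 with a Y-linked term, 28 to 133 with 1 library left out and 17 when the Xist-expressing libraries were omitted. Other disc genes called numbered 2 with upper-quartile factors, 4 with DESeq2, 0 on cardiomyocyte marker scaling, within F169, with the Y-linked term or with the Xist-expressing libraries omitted, and 0 to 1 with 1 library left out. With the replicate number as a block, 13 genes and 0 other disc genes were called and Ctnna1 turned to -0.00616. Same-numbered libraries did not deviate together (r = 0.0386, -0.0751 and -0.0791 across genes), and none correlated best with its own number. So few values cannot exclude a shared litter, which the labels do not give. The highest r, 0.224, was that of cKO replicate 4 with control replicate 3, the libraries of F191. With the title code as a term 214 genes were called, against 162 without it. Members held at least 1171 counts in every library.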
